A study of Mus musculus with 4 samples.

Results

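The genes described here encode defensins and other antimicrobial proteins of epithelia, and their transcripts were measured in MC903-treated and in vehicle-treated mouse skin. A list of 10 genes was taken (Defb1, Defb3, Defb4, Defb6, Defb14, Reg3g, Lcn2, Wfdc12, Lpo and Slpi), and 9 of them had a probe set that the array annotation assigns to that gene alone (the brightest such probe set was used), among 18193 genes in all. Defb14 was not analysed here. Wild-type female BALB/c mice had all been sensitised to ovalbumin, an egg-white protein, put on ear skin together with MC903, and had then been given ovalbumin by mouth. After that challenge 2 samples came from skin given MC903, and 2 from skin given the vehicle ethanol, each followed by a further oral challenge. MC903 (calcipotriol) is an analogue of vitamin D and causes dermatitis in mice. The vehicle mice had therefore met MC903 during sensitisation too. The labels used here give no dose, number of days or age, and do not say whether a sample was 1 animal or a pool. The p-values below therefore cover the variation among these 4 samples, part or all of which may be technical.

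Each value is a probe-set signal on a linear scale, scaled by array, with a precision limited by there being 4 arrays. Median signals were 90.2 and 99.6 on the MC903 arrays and 109 and 99.7 on the vehicle arrays. Signals of 1.55 to 24.0, the range of the TrpnX control probe sets for bacterial transcripts, were taken as background. The 3′ to 5′ signal ratio of Actb, a measure of RNA integrity, was 1.25 and 1.24 on the MC903 arrays and 1.26 and 1.27 on the vehicle arrays. The defining keratins of epidermis were present in both groups, Krt5 at 29772 and 29872 in MC903 skin and at 27745.1 and 27480.0 in vehicle skin. The treated skin also held muscle, and the summed signal of 8 skeletal muscle markers was 10420.0 and 40866 in MC903 skin and 53508 and 32210 in vehicle skin.

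Epithelia that face microbes secrete small proteins that kill or starve them. Beta-defensins are short cationic peptides held by disulfide bonds that disrupt microbial membranes, the lectin Reg3g binds peptidoglycan of Gram-positive bacteria, lipocalin 2 (Lcn2) captures bacterial siderophores and so withholds iron, and lactoperoxidase (Lpo) makes antimicrobial oxidants from hydrogen peroxide. Slpi and Wfdc12 carry whey acidic protein (WAP) domains, and Slpi is both an inhibitor of neutrophil serine proteases and an antimicrobial. In skin many of these genes are made by keratinocytes and are induced by wounding and by cytokines of the IL-1, IL-17 and IL-22 families, while Lcn2 and Slpi are also made by myeloid cells.

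Antimicrobial transcripts were more abundant in MC903 skin for 6 of the 9 genes, Defb3, Lpo, Reg3g, Wfdc12, Slpi and Lcn2. Each was at least 2-fold higher whichever MC903 array was set against whichever vehicle array (4 pairings), as were 1.16% of all genes. For these 2-fold counts, here and below, 16 was added to every signal before the ratio, unless another constant is named. None of the 9 was at least 2-fold lower in all pairings, against 0.813% of all genes. With an added constant of 1, 6 of the 9 and 2.2% of all genes were at least 2-fold higher in all pairings. The beta-defensins Defb1, Defb4 and Defb6 differed little or unevenly. All 9 log2 differences were above 0, the median being 3.32 where that of all genes was -0.04, and for 7 of the 9 both MC903 signals were above both vehicle signals, as they were for 21.6% of all genes. The reverse order was seen for 0 of the 9 and for 28.2% of all genes. The list was chosen with earlier results of these data known, so these shares describe it and do not test it.

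Groups were compared with limma on log2(signal + 16) over all 18193 genes, where the added 16 understates the differences of dim genes. With 1 prior variance for all genes, limma called 0 genes at an adjusted p below 0.05 (0% of all genes) and therefore 0 of the 9, although 7 of the 9 had an unadjusted p below 0.05, as did 6.82% of all genes in the same direction. When the prior variance followed the signal, limma called 98 genes higher in MC903 skin (0.539% of all genes), among them 4 of the 9, Defb3, Reg3g, Wfdc12 and Lpo. The number of calls with this prior changed with single arrays left out, when a group of 1 array takes its spread from the other group. The log2 differences of those 4 genes then ranged from 4.39 to 5.94 (Defb3), 3.23 to 4.59 (Reg3g), 3.47 to 3.80 (Wfdc12) and 4.01 to 4.07 (Lpo). With that prior, 1 of the 9 was called higher without vehicle replicate 1 (Wfdc12), as were 0.0385% of all genes, and 0 without vehicle replicate 2, against 0.0275% of all genes. The count was 6 without MC903 replicate 1 and 7 without MC903 replicate 2, where 0.737% and 3% of all genes were called higher, so the number called grew over all genes too. With 2 arrays per group, the smallest two-sided p of an exact permutation test is 0.333.

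**Figure D1:**
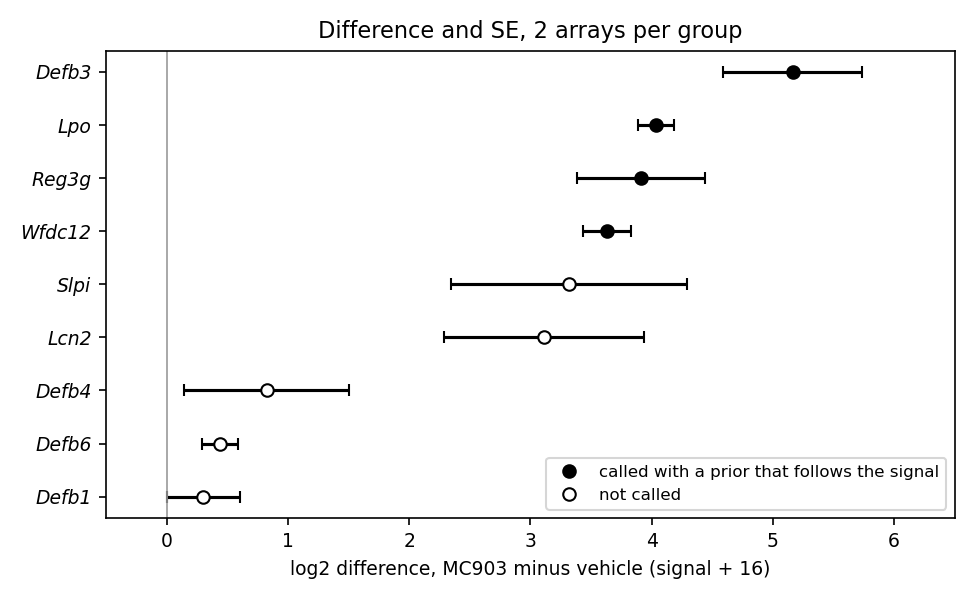
Log2 difference of each gene, MC903 minus vehicle, on the log2(signal + 16) scale (x axis), with the SE from limma with 1 prior variance as the bar, 2 arrays per group. Filled points mark the 4 genes called when the prior variance followed the signal, and Defb1, Defb6 and Defb4 lie lowest, at 0.30, 0.44 and 0.83.

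The beta-defensin genes lie on chromosome 8, and the 4 that were measured had unlike patterns. Defb3, an inducible beta-defensin, had signals of 1505 and 1049.6 in MC903 skin, against 4.79 and 44.6 in vehicle skin. Both MC903 arrays were far above both vehicle arrays, 1 of which lay within the background range. Its log2 difference was 5.17 ± 0.57 (SE, n = 2 per group; limma, adjusted p = 0.14, or adjusted p = 0.0236 when the prior variance followed the signal). Because of the unequal vehicle signals, the difference was 4.39 without vehicle replicate 1 and 5.94 without vehicle replicate 2.

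Defb6, a beta-defensin that lies near Defb3 on the chromosome, was bright in both groups. It had signals of 21564 and 21449 in MC903 skin and of 16209.5 and 15484 in vehicle skin. The groups did not overlap, but the log2 difference was small, 0.44 ± 0.15 (limma, adjusted p = 0.308, or adjusted p = 0.154 when the prior variance followed the signal), with values of 0.17 to 0.53 over the settings tried.

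Defb1, known as a constitutive beta-defensin of many epithelia, had signals of 3923 and 2312 in MC903 skin and of 2302 and 2581 in vehicle skin. The groups overlapped, MC903 replicate 2 lying between the vehicle arrays, and the log2 difference of 0.30 ± 0.30 (limma, adjusted p = 0.672) was -0.076 without MC903 replicate 1. A further probe set of Defb1, whose suffix marks possible cross-hybridisation, gave 3552 and 1673 in MC903 skin and 1587 and 1997 in vehicle skin, with the same overlap. Defb4, another inducible beta-defensin, was dim, at 235 and 63.6 in MC903 skin and 98.3 and 39.7 in vehicle skin. These groups overlapped as well, and its difference of 0.83 ± 0.68 (limma, adjusted p = 0.606) became -0.0030 without MC903 replicate 1. How far each defensin probe set reports its own gene, among related sequences, was not tested.

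Since Defb3 and Defb6 differed so unequally between the groups, the sequences before their starts are shown side by side. They are the 250 bases upstream of the RefSeq start in GRCm38.p6, on the plus strand, chr8:19293111-19293360 for Defb3 and chr8:19225228-19225477 for Defb6. Capitals mark matches to TTGCNNAA, letters of the C/EBP family of factors, on either strand.
Defb3: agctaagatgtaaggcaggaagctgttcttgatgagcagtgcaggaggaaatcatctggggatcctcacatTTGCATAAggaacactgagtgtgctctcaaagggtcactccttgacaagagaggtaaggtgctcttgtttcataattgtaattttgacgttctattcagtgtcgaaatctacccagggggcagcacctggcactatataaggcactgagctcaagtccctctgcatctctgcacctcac
Defb6: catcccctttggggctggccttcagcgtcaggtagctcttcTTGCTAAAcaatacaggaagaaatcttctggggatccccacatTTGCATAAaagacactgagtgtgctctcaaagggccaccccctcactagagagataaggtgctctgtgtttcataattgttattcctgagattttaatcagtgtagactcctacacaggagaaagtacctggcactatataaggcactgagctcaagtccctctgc
In a global alignment the sequences had 192 of 250 bases in common, or 76.8%, whereas the other 20 pairs among the 7 genes with a promoter entry shared 46.0% to 54.8%. The match TTGCATAA occurs in both, at positions -179 to -172 in Defb3 and -166 to -159 in Defb6 counted from the start, and Defb6 has a further match, TTGCTAAA, at -209 to -202.

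**Figure D2:**
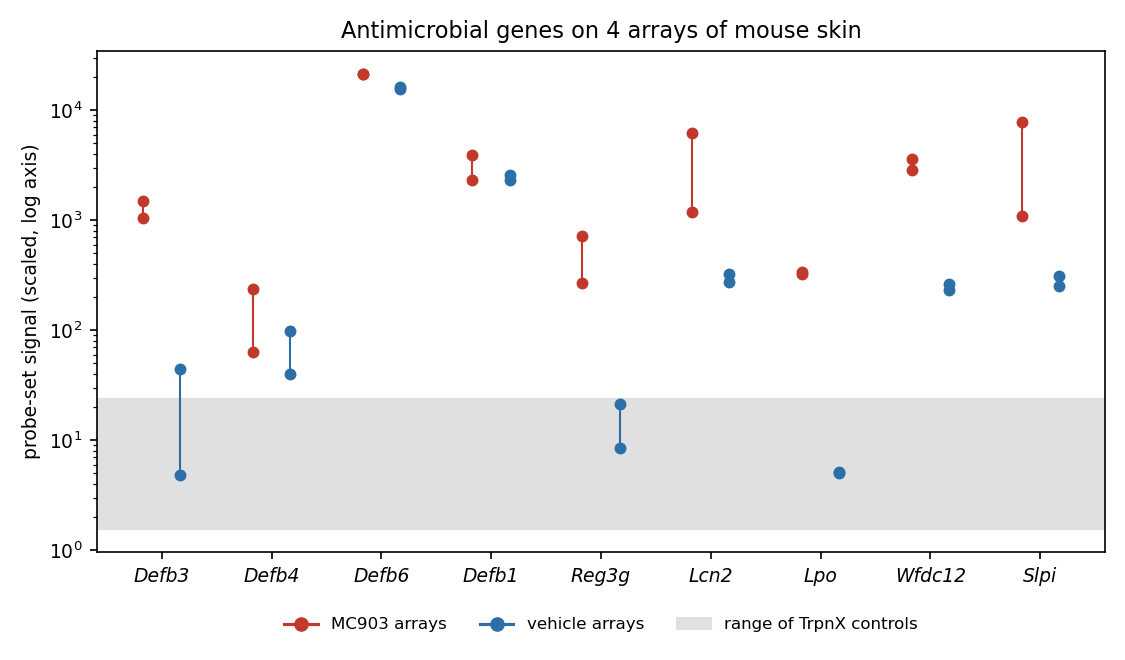
Probe-set signal (log axis) of each gene on the 2 MC903 arrays (left point pair) and the 2 vehicle arrays (right point pair), with a line joining arrays of 1 group and a grey band for the TrpnX background range of 1.55 to 24.0. The vehicle signals of Lpo and Reg3g and 1 of Defb3 lie within the band, and the MC903 signals of Lcn2 and Slpi are far apart.

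Reg3g transcript lay within background in vehicle skin and above it in MC903 skin. Its signals were 715 and 267 in MC903 skin, against 8.56 and 21.3 in vehicle skin. The groups did not overlap, and MC903 replicate 1 was 2.67 times as bright as MC903 replicate 2. Set against the highest TrpnX signal, Reg3g was at least 18.2-fold higher in MC903 skin, with a fitted log2 difference of 3.91 ± 0.53 (limma, adjusted p = 0.159, or adjusted p = 0.0418 when the prior variance followed the signal). The bound was at least 11.2-fold without MC903 replicate 1 and at least 29.8-fold without MC903 replicate 2, and the log2 difference was 3.23 and 4.59.

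Lpo, the peroxidase gene of the set, had signals of 338 and 324 in MC903 skin and of 5.19 and 5.09 in vehicle skin. The MC903 arrays were close to each other and far above both vehicle arrays, which lay within background, so no vehicle level was measured. Against the highest TrpnX signal Lpo was at least 13.8-fold higher in MC903 skin, and the fitted log2 difference was 4.04 ± 0.15. Its limma adjusted p of 0.0561 was the smallest of all 18193 genes with 1 prior variance, and it fell on either side of the threshold with changes of procedure. The adjusted p was 0.0384 when each gene's probe set was chosen by linear rather than log signal, and 0.00970 when the prior variance followed the signal. It was 0.0640 with a robust prior, 0.178 with the replicate number as a block and 0.18 with an added constant of 1.

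Wfdc12, an antibacterial WAP protein, was measured above background on every array. It had signals of 3627 and 2883 in MC903 skin, against 231 and 262 in vehicle skin. The groups were far apart and both pairs of replicates close, with raw signal ratios of 11.0 to 15.7 over the 4 pairings. The log2 difference was 3.63 ± 0.20 (limma, adjusted p = 0.0765, or adjusted p = 0.00378 when the prior variance followed the signal), and it ranged from 3.41 to 3.80 over the settings tried.

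Lcn2 and Slpi were alike in the size of their differences and in how unequal their MC903 arrays were. Lcn2 had signals of 6213 and 1187 in MC903 skin, against 276 and 327 in vehicle skin. Both MC903 arrays were above both vehicle arrays, but MC903 replicate 1 was 5.23 times as bright as MC903 replicate 2. Its log2 difference of 3.11 ± 0.82 (limma, adjusted p = 0.25, or adjusted p = 0.132 when the prior variance followed the signal) was 4.30 without MC903 replicate 2 and 1.93 without MC903 replicate 1. Slpi, which lies on chromosome 2 as do Wfdc12 and Lcn2, had signals of 7801 and 1103 in MC903 skin, against 251 and 313 in vehicle skin. Here MC903 replicate 1 was 7.08 times as bright as MC903 replicate 2. The log2 difference of Slpi was 3.32 ± 0.97 (limma, adjusted p = 0.27, or adjusted p = 0.152 when the prior variance followed the signal), 4.72 without MC903 replicate 2 and 1.92 without MC903 replicate 1.

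The sequences before the starts of Lcn2 and Slpi are shown because their signals followed each other over the arrays. Both are 250 bases on the minus strand of GRCm38.p6, from RefSeq, chr2:32387740-32387989 for Lcn2 and chr2:164356508-164356757 for Slpi, with matches to TTGCNNAA on either strand in capitals.
Lcn2: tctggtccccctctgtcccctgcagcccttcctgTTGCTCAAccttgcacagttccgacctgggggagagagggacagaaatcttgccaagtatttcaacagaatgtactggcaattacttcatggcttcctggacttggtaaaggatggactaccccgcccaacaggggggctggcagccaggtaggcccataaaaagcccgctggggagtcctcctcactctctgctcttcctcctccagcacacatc
Slpi: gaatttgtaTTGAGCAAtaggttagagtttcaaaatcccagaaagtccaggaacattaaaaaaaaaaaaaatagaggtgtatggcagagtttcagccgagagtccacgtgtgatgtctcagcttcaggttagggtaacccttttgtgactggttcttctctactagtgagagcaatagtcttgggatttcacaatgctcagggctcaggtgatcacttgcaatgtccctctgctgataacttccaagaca
Each held 1 match, TTGCTCAA at -216 to -209 in Lcn2 and TTGAGCAA, on the opposite strand, at -241 to -234 in Slpi. Letters of TTGCNNAA were found in 5 of the 7 promoters searched (Defb3, Defb6, Lcn2, Slpi and Wfdc12) and in 9.56% of all 32851 promoters. The shared TTGCATAA of Defb3 and Defb6 does not count as separate matches, since those 2 windows were 76.8% identical. Searches of both strands for TGANTCA (AP-1), GGGNN followed directly by TTTCC (NF-kB), TTCNNNGAA (STAT) and AGNTCA repeated in the same direction after 3 further bases (vitamin D receptor) matched 0 of the 7, against 6.75%, 1.41%, 7.02% and 0.0517% of all promoters. With shares this low, 0 of 7 could not tell these promoters from others, and other forms of these sites were not searched. TTGCNNAA was the only pattern searched that matched any of the 7. Such matches describe the letters in this window only.

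The MC903 arrays were unequal in 1 direction for the whole set, since all 9 genes were brighter in MC903 replicate 1 than in MC903 replicate 2, as were 48.1% of all genes. Against the mean of the vehicle arrays the median log2 difference of the 9 was 4.07 in MC903 replicate 1 and 1.93 in MC903 replicate 2. The inequality was small for Lpo, Defb6 and Wfdc12, whose signals in MC903 replicate 1 were 1.05, 1.01 and 1.26 times those in replicate 2. It was large for Slpi and Lcn2 and, at lower signal, for Defb4 (3.69 times).

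**Figure D3:**
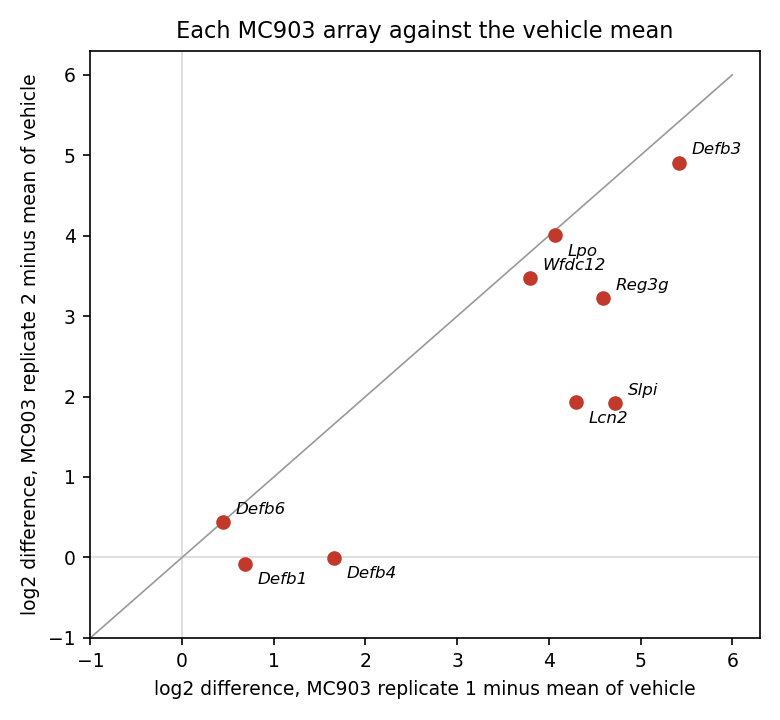
Log2 difference from the mean of the 2 vehicle arrays in MC903 replicate 1 (x axis) and in MC903 replicate 2 (y axis), with a line where both are equal. Lpo and Defb6 lie on the line, Wfdc12 and Defb3 near it, and Slpi and Lcn2 far below it at 4.72 and 1.92 and at 4.30 and 1.93.

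Summed signals of neutrophil and of macrophage markers were also higher in MC903 replicate 1 than in replicate 2, while those of T cell markers were near equal. Of 13 neutrophil markers 11 were measured, with a summed signal of 21976 and 7127 in MC903 skin and of 938 and 974 in vehicle skin, most of it from Stfa2l1, a stefin whose probe set may also report related stefins of keratinocytes. Without Stfa2l1 the other 10 summed to 2399 and 1269 in MC903 skin and to 897 and 909 in vehicle skin. Granule genes of the list did not share 1 pattern. Mpo stood at 177 and 382 in MC903 skin and at 276 and 346 in vehicle skin, and Mmp9 at 653 and 238 in MC903 skin and at 255 and 234 in vehicle skin. Elane was dim, at 12.1 and 59.0 in MC903 skin and at 2.29 and 45.4 in vehicle skin, as was Camp, the cathelicidin gene, at 37.6 and 7.20 in MC903 skin and at 27.2 and 2.77 in vehicle skin. The groups overlapped for these 4 genes. Without Stfa2l1, 4 of the 10 markers were higher without overlap, Csf3r, Cxcr2, Trem1 and Mmp8, as were 21.6% of all genes. Csf3r stood at 809 and 233 in MC903 skin and at 108 and 135 in vehicle skin. The granule gene Mmp8 stood at 151 and 43.1 in MC903 skin and at 31.0 and 3.17 in vehicle skin. Elane, Mpo and Ltf were brighter in MC903 replicate 2, and the other measured markers of the list in replicate 1. Ly6g was not analysed here. The 9 macrophage and monocyte markers summed to 44838 and 23963 in MC903 skin and to 17155 and 14743 in vehicle skin. All 9 were higher without overlap (21.6% of all genes), for example Ms4a7 by 1.41 ± 0.31, and 0 were called with either prior. The 6 T cell markers summed to 1563 and 1462 in MC903 skin and to 706 and 819 in vehicle skin. Their median log2 difference was 0.98 and 0 were called. All but Cd8a, 5 in number, were higher without overlap (21.6% of all genes). Cd2 was at least 2-fold higher in all pairings (1.16% of all genes), with a log2 difference of 1.40 ± 0.23. Cd8a and Cd4 were brighter in MC903 replicate 2, and Cd2, Cd3d, Cd3e and Cd3g in replicate 1. The part of these cells in the Lcn2 and Slpi signals was not tested, and in whole skin more cells of a type and more RNA per cell cannot be told apart.

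Epithelial marker lists differed in how alike the MC903 arrays were. The 7 basal keratinocyte markers had a median log2 difference of -0.11 and summed to 105035 and 101967 in MC903 skin and to 104203 and 105150.0 in vehicle skin. The 4 stress keratins of wounded epidermis had a median of 2.81. When the prior variance followed the signal, 2 of them were called higher (0.539% of all genes), Krt6b (6.70 ± 0.48) and Krt16 (4.41 ± 0.27). Of 8 suprabasal markers, with a median of 0.19, Krt1 was called in the same way (1.30 ± 0.17), while Flg, the filaggrin gene, stood at 7333 and 17784 on the MC903 arrays. Hair shaft markers had a median of -4.44 over 7 genes, 5 of them called lower when the prior variance followed the signal (0.385% of all genes), with Krtap8-1 at -5.47 ± 0.79 and Krt33b at -5.20 ± 0.56. The signal of Krtap8-1 was 694 and 139 on the MC903 arrays. The 6 sebaceous gland markers had a median of 0.05 with 0 called, or of -0.37 in MC903 replicate 1 and 0.22 in MC903 replicate 2 against the vehicle mean, and the lipid elongase Elovl3 stood at 4293 and 10214 on the MC903 arrays. Lpo is best known from salivary and mammary secretions. Of 11 markers of salivary, mammary and sweat glands 0 were called with either prior and the median was -0.12. Signals of 2 of the 11, Lalba and Smgc, lay within background on all 4 arrays. Those of Csn2, Csn3, Csn1s1, Prol1 and Dcpp1 lay within it on some arrays, which limits what the median shows. But Mucl1 differed by 2.19 ± 0.52 and the secretoglobin Scgb2b27 by 1.91 ± 0.31, both at least 2-fold higher in all pairings (1.16% of all genes). Their part in the Lpo signal was not tested.

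Relatives of these genes had medians near that of all genes (-0.04). Of 19 other defensins (16 beta and 3 alpha) limma called 0 with either prior, the median log2 difference was 0.07, and the highest signal on any array was 97.7. Signals of 8 of the 19 lay within background on all 4 arrays. Defb45 stood at 66.0 and 62.4 in MC903 skin and at 35.1 and 2.40 in vehicle skin, and Defb15 at 6.42 and 4.32 in MC903 skin and at 43.6 and 20.0 in vehicle skin, so each had a group partly or wholly within background. Of 6 other Reg lectins 0 were called and the median was 0.18. Yet Reg1 was at least 2-fold higher in all pairings (1.16% of all genes), with a log2 difference of 2.39 ± 0.65. It stood at 480.3 and 121 in MC903 skin, against 39.0 and 29.4 in vehicle skin. Reg3b, an antibacterial lectin close to Reg3g, stood at 64.8 and 200.1 in MC903 skin and at 57.6 and 42.3 in vehicle skin. Among 10 other WAP genes the median was -0.16 and 0 were called, Wfdc15a differing by 0.89 ± 0.47 and Wfdc18 by -0.81 ± 0.63. For 7 other lipocalins the median was 0.01, Lcn8 differing by -0.50 ± 0.48 and Lcn3 by 0.45 ± 0.66. All 7 were dim, with a highest signal of 54.1 on any array, and 3 of them lay within background on all 4 arrays. For 7 other genes of peroxidases and their oxidant supply the median was -0.12, Duox1, which makes hydrogen peroxide, differing by 0.23 ± 0.17 and the neutrophil peroxidase Mpo by -0.23 ± 0.40. In both the lipocalin and the peroxidase list 0 genes were called.

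**Figure D4:**
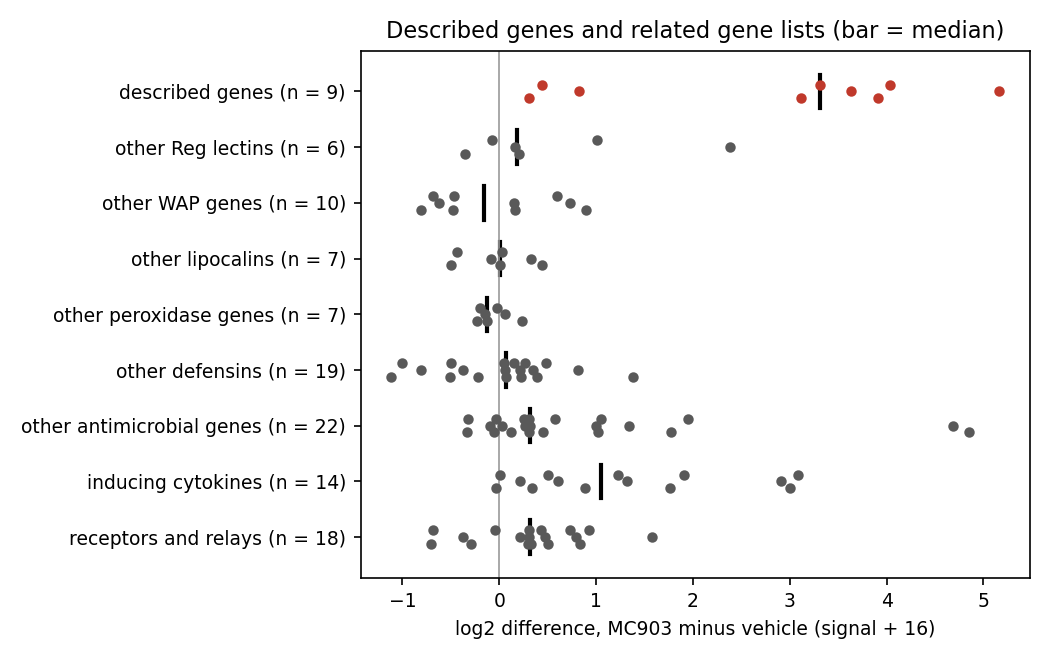
Log2 difference, MC903 minus vehicle (x axis), of each gene in the described set (top row) and in related lists, 1 point per gene and a bar at the median. The described genes have a median of 3.32, the other defensins of 0.07 and the inducing cytokines of 1.06.

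Of 22 other antimicrobial genes of skin and leukocytes, 0 were called with either prior. At least 2-fold higher in all pairings were 3, S100a8, S100a9 and Ang4, as were 1.16% of all genes. S100a8 and S100a9 encode calprotectin, which withholds zinc and manganese from microbes. S100a9 stood at 26482 and 4081 in MC903 skin, against 253 and 466 in vehicle skin, and S100a8 at 36943 and 5891 in MC903 skin, against 422 and 732 in vehicle skin. Both were thus unequal between the MC903 arrays in the direction of Lcn2 and Slpi. Camp, whose human counterpart is a known direct target of the vitamin D receptor, differed by 0.31 ± 0.60, with overlapping groups.

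Among cytokines known to induce these proteins, 14 of 18 were measured, with a median log2 difference of 1.06 and 0 called with either prior. At least 2-fold higher in all pairings were 4 (Il1b, Il6, Il24 and Il1f6, the gene of IL-36 alpha), as were 1.16% of all genes. Il6 stood at 818 and 128 in MC903 skin, against 37.3 and 15.4 in vehicle skin. Il24, of the IL-20 family that acts on keratinocytes, stood at 549 and 170 in MC903 skin, against 29.1 and 20.3 in vehicle skin. Il17a stayed dim, at 44.8 and 39.6 in MC903 skin and 54.6 and 19.8 in vehicle skin, and the groups overlapped. Il22 was not analysed here. Unlike Lcn2 and Slpi, Il1f6 was brighter in MC903 replicate 2, at 1505 and 3157 in MC903 skin, against 689 and 468 in vehicle skin.

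Receptors and relays of these cytokines differed by a median of 0.32 over 18 genes, and 0 were called with either prior. Socs3, a feedback inhibitor induced by STAT3, stood at 2374 and 1342 in MC903 skin, against 479 and 719 in vehicle skin, a log2 difference of 1.58 ± 0.37. Nfkbiz, the IkB-zeta cofactor needed for Lcn2 induction by IL-17 in mouse cells, differed by 0.93 ± 0.27 (limma, adjusted p = 0.27). The C/EBP genes Cebpb and Cebpd, chosen after their values were seen because of the promoter letters above, differed by 0.30 ± 0.15 and 0.31 ± 0.16. In the vitamin D system, 1 of 5 genes was called higher when the prior variance followed the signal (0.539% of all genes). It was the vitamin D inactivating enzyme Cyp24a1, at 17297 and 10385 in MC903 skin, against 12.7 and 40.8 in vehicle skin. Vdr, the receptor itself, differed by -0.21 ± 0.18. Type 2 cytokines and their relays, which are known to lower defensin expression in human keratinocytes, had a median of 0.88 over 7 genes with 0 called, Il4ra differing by 1.64 ± 0.49 and Il4 by 1.45 ± 0.95, with overlapping groups for Il4.

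The receptors and target proteases of the described proteins gave a median of 0.16 over 12 genes, with 0 called. Ccr2 and Ccr6, chemokine receptors to which beta-defensins can bind, differed by 1.19 ± 0.26 and 0.47 ± 0.15, Ccr6 being chosen after its values were seen. Mc1r, the melanocortin receptor bound by a beta-defensin in dogs, differed by -1.40 ± 0.23. It was at least 2-fold lower in all pairings (0.813% of all genes), at 60.8 and 92.0 in MC903 skin and at 237 and 214 in vehicle skin. Elane, the elastase that Slpi inhibits, differed by 0.45 ± 0.78 and its groups overlapped.

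The genes whose pattern over the 4 arrays lay closest to that of each described gene were found by the Euclidean distance between centred log2(signal + 16) values, which describes these 4 arrays only. Lcn2 and Slpi were among the 3 closest genes of each other, at a distance of 0.37, and both had Il1b among their 3 closest, at 0.22 and 0.57. Il1b stood at 2898 and 592 in MC903 skin, against 151 and 171 in vehicle skin, and the neutrophil chemokine Cxcl5 was the closest gene to Slpi, at 0.36. Wfdc12 and Lpo were likewise among the 3 closest of each other, at 0.46, and both had the late cornified envelope gene Lce3c among their 3 closest, at 0.32 and 0.44. Closest to Lpo was Fxyd4, a regulator of the sodium pump, at 0.19. The cornified envelope genes Sprr1b and Lce3a were the closest to Defb3 and to Reg3g, at 0.71 and 0.38, and Lce3a was also the next closest to Defb3, at 1.16.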

How the data were processed

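RNA of whole treated skin had been labelled with biotin by a 3′ IVT kit, as the labels' protocols state. The deposited intensity values are linear probe-set signals (45101 probe sets, 4 arrays). The program behind them was not given in the sources used here. On each array the mean of the deposited values, trimmed by 2% at either end, was 500.003, so the values had been scaled. They carry no detection calls. Of the probe sets 34945 had 1 gene symbol, updated through the Entrez ID to RefSeq (GRCm38.p6). A gene's value was that of its brightest probe set by mean log2(signal + 16), which gave 18193 genes. limma 3.58.1 in R 4.3.3 compared 2 MC903 with 2 vehicle (Control) arrays, with 2 residual and 2.32 prior degrees of freedom and Benjamini-Hochberg adjustment over all genes. The prior that follows the signal is limma's intensity trend. The fit was tested on simulated data. An "at least" fold sets the mean log2 signal of MC903 against the highest TrpnX signal. The naming rule took all members, a fixed set of genes of interest and the 3 closest patterns per member. Per list it took up to 4 genes passing the test. With fewer than 2 passing, it took the 2 with the largest absolute differences. Not all genes of the rule are described here. Others, such as Krt5, Mmp8, Mmp9, Ltf, Cd4, Cd8a and Elovl3, were named outside the rule. For 3 IL-36 genes the older symbol was used. Members and lists were chosen with earlier results of these data known. No arrays were copies of each other. Nothing in the labels pairs same-numbered samples. Alternatives were other normalizations, constants, filters, probe-set rules, priors, a block for the replicate number and omission of single arrays.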

Additional observations from a re-analysis of the deposited data

How the results depend on the processing

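The log2 differences of the 9 genes (6 where the dimmest 50% were left out) were above 0 in every setting run except without MC903 replicate 1, with either prior, for Defb1 (-0.076) and Defb4 (-0.0030). With single arrays left out Defb1 ranged from -0.076 to 0.68 and Defb4 from -0.0030 to 1.65. The number of members at least 2-fold higher in all pairings was 6 in every setting but 2, being 4 without the dimmest 50% of genes, where 6 members were tested (1.21% of all genes), and 7 without MC903 replicate 2 (3.62% of all genes). Members with both groups apart numbered 7 to 9 with an array left out, where 32.3% to 35.8% of all genes were higher without overlap, 5 without the dimmest 50% (23% of all genes) and otherwise 7 (21.5% to 27.9%). The count of all genes called was 0 with the settings of the report and with quantile normalization, an added constant of 1, a robust prior and 1 array left out. It was 3 with median centring, 70 with an added constant of 64, 36 without the dimmest 25%, 190 without the dimmest 50%, 4 with the mean of all probe sets and 168 when the prior variance followed the signal. Choosing probe sets by linear signal, added after seeing the data, gave 5, or 168 with that prior. With that prior, also added later, it was 15 without vehicle replicate 1, 5 without vehicle replicate 2, 227 without MC903 replicate 1 and 946 without MC903 replicate 2. With the replicate number as a block, 0 genes were called, and the deviations of same-numbered arrays correlated at -0.061 over genes. A group reduced to a single array takes its spread from the other group. Dim signals limit the vehicle levels of Lpo, Reg3g and Defb3, and their log2 differences depended on the added constant, being 2.51 with 64 and 5.76 with 1 for Lpo, 2.69 and 4.91 for Reg3g, and 3.94 and 6.28 for Defb3.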
